A study of Mus musculus with 6 samples.

Results

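The genes described are 9 components of the pathway that carries an interferon signal from the cell surface to the nucleus. They are the receptor chains Ifnar1 and Ifnar2, the signal transducers Stat2 and Stat3, and the interferon regulatory factors Irf1, Irf2, Irf3, Irf7 and Irf9. All probes annotated with 1 of these symbols were taken, which gave 20 of the 45281 probes on the array and 9 of the 19057 genes with a symbol. RNA came from mouse embryonic fibroblasts, connective tissue cells grown from dissociated embryos, of the C57Bl/6NCr strain. Lasp1+/+ cells (wild type, 3 arrays) were compared with Lasp1-/- cells (knockout, 3 arrays), in which the gene of the actin-binding LIM and SH3 domain protein LASP1 is disrupted on both chromosomes. The labels give no treatment, passage or embryo age, do not say how Lasp1 was disrupted, and leave unsaid whether each array stands for its own culture or embryo. The p-values therefore measure spread from array to array, which may be technical.

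Type I interferons bind a receptor made of the IFNAR1 and IFNAR2 chains. The kinases JAK1 and TYK2 on that receptor phosphorylate STAT2, which acts with IRF9 in a complex called ISGF3 that switches on antiviral genes through a DNA element, the interferon-stimulated response element (ISRE). Among the genes that ISGF3 induces are several of its own parts and IRF7, which then drives more interferon production, so the pathway can amplify itself. IRF3 is present before any signal and is activated by phosphorylation. IRF1 is an activator strongly induced by interferon gamma, IRF2 competes with it at the same sites, and STAT3 carries signals from interleukin-6 family cytokines that use the receptor chain gp130. Fibroblasts make low amounts of interferon beta and respond to it, and they are the cells in which much of this pathway was worked out.

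Irf7, Irf9 and Stat2 fell in Lasp1 knockout fibroblasts. Irf7 was 2.22-fold lower, and Irf9 and Stat2 were each about 1.5-fold lower (1.55-fold and 1.54-fold). Ifnar1, Ifnar2, Irf1, Irf2, Irf3 and Stat3 did not pass the test at their brightest probes. Of the 9 genes 3 fell and 0 rose (limma, Benjamini-Hochberg adjusted p under 0.05), with 0 rises also at an unadjusted p under 0.05. Among all 19057 genes, 4.08% fell, 2.19% rose and 6.28% were called either way, and among the 11985 genes above the median of probe means these shares were 6.43%, 3.4% and 9.84%. Groups were separate, with the 3 arrays of a genotype all above or all below those of the other, for the same 3 of the 9 and for 21.3% of all genes. The median log2 difference was -0.05 over the 9 and -0.02 over all genes. Rises made up 34.9% of all calls with the deposited scaling and 48.2% after quantile normalization, under which the same number of the 9 fell.

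The targeted gene was read first. Lasp1 gave intensities of 135295, 148208 and 148809 in wild type and 51904, 51019 and 49770 in knockout, 2.83-fold lower (log2 difference -1.50 ± 0.07 SE, limma adjusted p = 1.17e-05). A second Lasp1 probe was 4.1-fold lower (limma adjusted p = 0.00018 over all probes), and another, near the array median, was 1.2-fold lower and not called (0.121). The knockout arrays kept a mean intensity of 50898 at the brightest probe, and the position of these probes against the disruption was not analysed here. Every array had been scaled to a median of 1000 by the authors, the lowest values were 593 to 638, and a probe near 1000 or below is close to background light, so the fold of a dim gene is understated. The upper quartile of the arrays was 2018 to 2330 and was highest in wild type replicate 2 (2330) and knockout replicate 1 (2283). Of 10 fibroblast markers, all above the median of probe means (992.7), 5 fell. These were Col1a2 (log2 difference -0.84), Lum (-0.80), Pdgfrb (-0.75), Dcn (-0.64) and Thy1 (-0.60). The median log2 difference of the 10 was -0.55, against -0.02 over all genes. Their summed intensity was 848861 to 977047 in wild type and 664379 to 703672 in knockout. Of 9 macrophage markers 2 rose, Lyz2 (mean 3772 to 5535) and Mrc1 (1661 to 2524), Cd14 had separate groups and was not called (1823 to 2320), and the sums were 12160 to 13990 and 16130 to 17112. Of this list Ptprc, Itgam and Fcgr1 had both means below the median of probe means. Adgre1 (1128 to 1189), Csf1r (1073 to 1144) and Cx3cr1 (1049 to 995) lay near the array median and were not called. Endothelial markers gave 1 rise in 8 and summed to 10413 to 11015 against 10944 to 11660, and epithelial markers gave 1 fall in 8 and summed to 9229 to 9822 against 8897 to 9233. Lymphocyte and plasmacytoid dendritic cell markers gave 1 fall in 8, that of the interferon-induced Bst2, and summed to 84071 to 103973 against 80149 to 88116, of which Tcf4 alone made up 74052 to 90149 and 71277 to 78779. The 4 sex-linked genes gave no call by limma, with 1 lower at an unadjusted p under 0.05, Kdm5d (mean 1306 to 1161). Xist averaged 8881 in wild type and 12668 in knockout with overlapping groups, Eif2s3y 2072 and 2322, and Uty 1233 and 1224. The 4 summed to 10492 to 18064 against 16029 to 20018. That sum is mostly X-linked Xist and adds it to Y-linked genes, so it does not measure sex. Of these marker calls, those of Bst2, Mrc1 and Lyz2 were lost in 8, 5 and 2 of the 16 alternatives. The fibroblast calls were unstable too: those of Pdgfrb, Col1a2 and Lum were lost in 6, 5 and 3 of the 16. With 1 array left out, fibroblast falls numbered 0 to 6 and macrophage rises 0 to 3. The part of these differences in the results below was not tested, and in bulk RNA fewer cells of a type and less RNA per cell cannot be told apart.

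**Figure D1:**
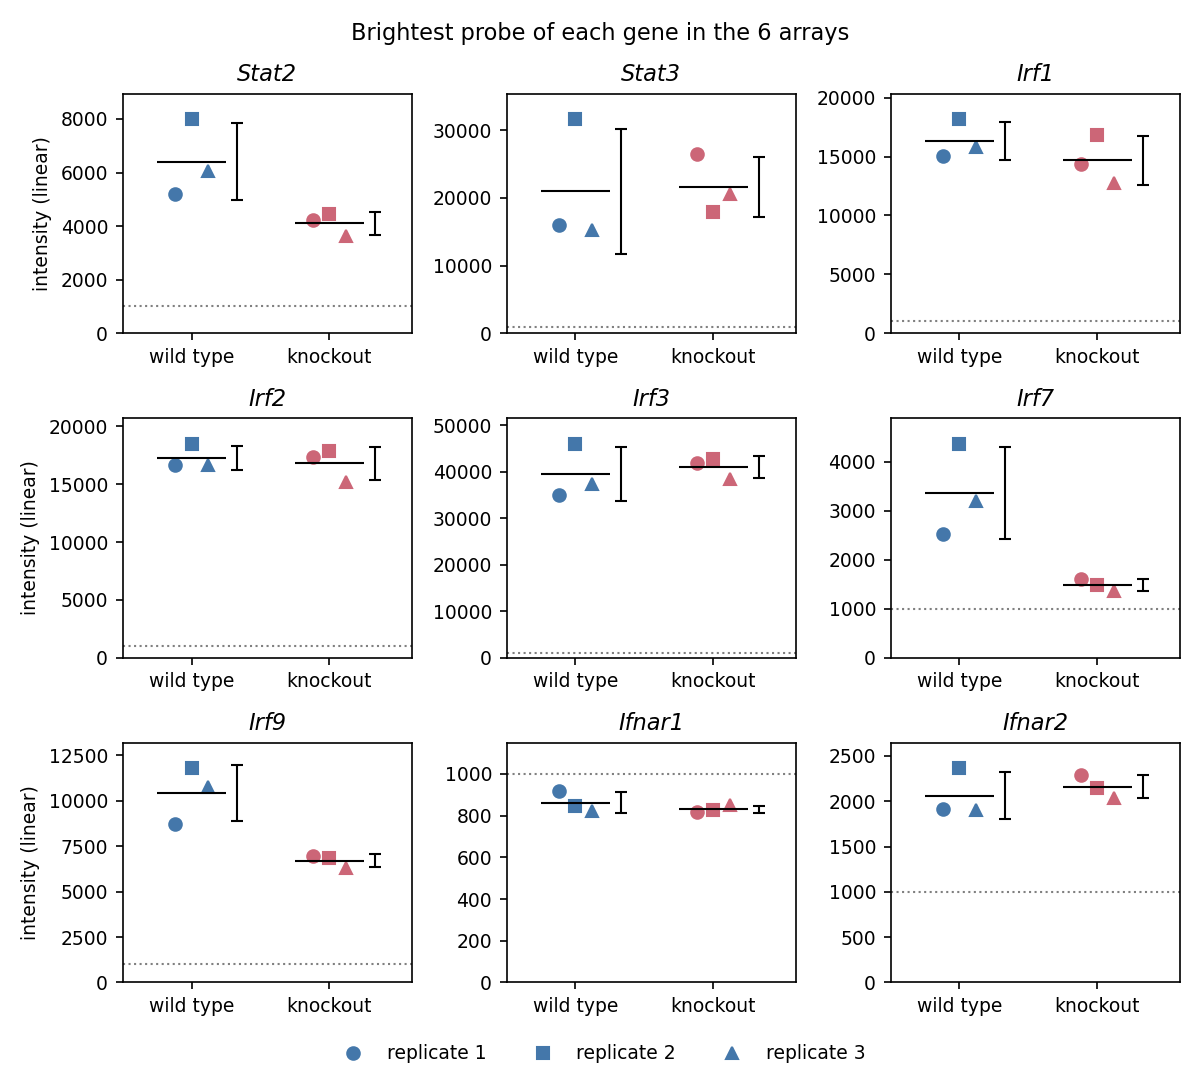
Intensity (linear scale, array median 1000 shown as a dotted line) of the brightest probe of each of the 9 genes in the 3 wild-type (blue) and 3 knockout (red) arrays; horizontal lines are group means and the bars beside them ± 1 SD. Groups are separate for Stat2, Irf7 and Irf9 and overlap for the other genes, and Ifnar1 lies below the array median in all 6 arrays.

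At the cell surface, neither receptor chain differed beyond the spread between arrays. Ifnar1, the chain that recruits TYK2, had a single probe, which read 918, 848 and 823 in wild type and 818, 826 and 850 in knockout. All 6 values lay below the array median, so the probe gives no usable level for this gene in either genotype. Ifnar2, the chain that binds interferon tightly and recruits JAK1, read 1915, 2363 and 1908 in wild type and 2292, 2147 and 2038 in knockout at its brightest probe. The groups overlapped, the log2 difference was 0.07 ± 0.10 (SE) and its 95% interval ran from -0.15 to 0.30 (limma adjusted p = 0.808). The other Ifnar2 probes differed by -0.05 and -0.10, the second of them below the array median, and the mean over the 3 probes was -0.02.

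The promoter windows of the genes that fell together are shown with those of Irf1 and Irf2, which were not called. Each window is RefSeq sequence of build GRCm38.p6 from 250 bases before to 50 bases after a gene start, and all 9 genes matched, with 11 windows. In capitals are matches on either strand to the ISRE core, which is GAAA, any 2 bases and GAAA again, and to the STAT palindrome TTCNNNGAA, the gamma-activated site (GAS). Of 32851 mouse windows, 3.44% held the first and 8.3% the second.
Stat2 (chr10:128270248-128270547, plus strand): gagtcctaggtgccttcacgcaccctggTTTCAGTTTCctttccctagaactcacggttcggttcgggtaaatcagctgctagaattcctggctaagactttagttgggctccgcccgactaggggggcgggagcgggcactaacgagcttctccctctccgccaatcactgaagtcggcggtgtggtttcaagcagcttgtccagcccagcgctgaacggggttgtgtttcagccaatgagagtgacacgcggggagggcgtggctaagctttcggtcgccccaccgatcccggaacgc
Irf7 (chr7:141266375-141266674, minus strand): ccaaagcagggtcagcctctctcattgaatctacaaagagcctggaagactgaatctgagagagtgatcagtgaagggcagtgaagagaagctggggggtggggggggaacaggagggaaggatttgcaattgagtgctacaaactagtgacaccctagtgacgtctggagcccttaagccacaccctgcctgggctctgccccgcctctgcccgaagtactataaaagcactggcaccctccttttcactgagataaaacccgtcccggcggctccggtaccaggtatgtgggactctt
Irf9, the first of 2 starts (chr14:55603735-55604034, plus strand): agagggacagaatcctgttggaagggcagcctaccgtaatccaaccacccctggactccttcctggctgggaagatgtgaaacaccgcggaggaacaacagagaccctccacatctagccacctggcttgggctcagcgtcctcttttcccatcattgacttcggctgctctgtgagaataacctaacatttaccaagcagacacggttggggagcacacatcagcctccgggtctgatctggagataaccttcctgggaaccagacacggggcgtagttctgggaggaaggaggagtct
Irf1, the first of 2 starts (chr11:53769764-53770063, plus strand): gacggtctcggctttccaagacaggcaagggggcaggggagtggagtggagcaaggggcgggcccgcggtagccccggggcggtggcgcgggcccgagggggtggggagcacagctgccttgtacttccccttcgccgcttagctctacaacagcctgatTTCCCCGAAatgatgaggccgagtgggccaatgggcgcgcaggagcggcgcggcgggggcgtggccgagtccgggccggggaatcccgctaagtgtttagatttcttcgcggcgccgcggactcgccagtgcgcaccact
Irf2 (chr8:46739495-46739794, plus strand): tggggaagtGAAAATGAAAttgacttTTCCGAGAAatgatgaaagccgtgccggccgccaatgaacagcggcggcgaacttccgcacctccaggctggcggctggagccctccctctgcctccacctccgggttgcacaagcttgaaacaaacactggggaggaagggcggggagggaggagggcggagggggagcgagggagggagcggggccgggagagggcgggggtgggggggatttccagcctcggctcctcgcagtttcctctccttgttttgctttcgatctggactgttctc

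Stat2 held an ISRE core from 222 to 213 bases before its start, on the reverse strand (TTTCAGTTTC). Irf7 and both windows of Irf9 held neither of these letter runs. Irf1 held the GAS TTCCCCGAA from 90 to 82 bases before its start and no ISRE core. Irf2 held both motifs, an ISRE core (GAAAATGAAA) from 241 to 232 bases and a GAS (TTCCGAGAA) from 224 to 216 bases before the start. Ifnar1 and Ifnar2 each held 1 GAS, and Stat3 and Irf3 held neither. In all 4 motifs were searched, chosen after the differences were known. The other two were TTC and GAA with 4 bases between, found in 6.95% of windows and once each in Stat2 and the first Irf9 window, and the shorter IRF core AANNGAAA, found in 23.9% of windows and in Stat2 and Irf2, and contained in the ISRE core. A match is a run of letters and not a measured binding site.

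The DNA-binding subunit of ISGF3, Irf9, was lower in every knockout array. Its brightest probe read 8713, 11774 and 10762 in wild type (mean 10416 ± 1559, SD, n = 3) and 6961, 6865 and 6270 in knockout (mean 6699 ± 374, SD, n = 3). The highest knockout array lay below the lowest wild-type array, and the gene fell by 0.63 on the log2 scale (SE 0.11, 95% interval -0.88 to -0.37, limma adjusted p = 0.0111). A dimmer Irf9 probe read 2172, 2918 and 2832 against 2087, 1954 and 2049, also with separate groups, and missed the threshold (-0.37 ± 0.11, limma adjusted p = 0.118 over all probes). Within each array the log2 ratio of the dimmer to the brighter probe was 0.26 higher in knockout (exact two-sided permutation p = 0.1, the smallest that 3 arrays against 3 allow, and 0.15 adjusted over the 6 pairs compared, which were chosen after the values had been seen). Irf9 was not called without wild type replicate 3 (-0.60, limma adjusted p = 0.074), without knockout replicate 3 (-0.58, 0.0776) or after background correction (-0.68, 0.0734), and the adjusted p over its 16 alternatives ran from 0.000288 to 0.0776. Adjusted over all probes, it also missed the threshold with knockout replicate 2 left out (0.0551).

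Stat2, the subunit that gives ISGF3 its activation domain, had 1 probe. It read 5201, 7990 and 6041 in wild type (mean 6411 ± 1431, SD, n = 3) and 4237, 4434 and 3629 in knockout (mean 4100 ± 420, SD, n = 3), so that knockout stood at 64.0% of wild type. No knockout array reached the lowest wild-type array, and wild type replicate 2 was the highest of all. The log2 difference was -0.63 ± 0.15 (SE), with a 95% interval from -0.96 to -0.29 and a limma adjusted p of 0.039. This call is the least firm of the 3: it was lost without wild type replicate 3 (-0.66, adjusted p = 0.135) and without knockout replicate 1 (-0.65, 0.0695), replicate 2 (-0.69, 0.0834) or replicate 3 (-0.54, 0.192). It was also lost after background correction (-0.72, 0.117) and when all genes were averaged over their probes (-0.63, 0.053), and the adjusted p over the 16 alternatives ran from 0.00263 to 0.192.

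Irf7, the factor that amplifies interferon production once ISGF3 has raised its level, showed the largest difference of the 9 genes. Its probe read 2527, 4362 and 3194 in wild type (mean 3361 ± 929, SD, n = 3) and 1603, 1484 and 1353 in knockout (mean 1480 ± 125, SD, n = 3). All knockout arrays lay far below the lowest wild-type array, at 44.0% of wild type on average and not far above the array median. The log2 difference was -1.15 ± 0.17 (SE), with a 95% interval from -1.54 to -0.76 and a limma adjusted p of 0.00438. In the gene-level fit Irf7 was called in all 16 alternatives run (limma adjusted p 3.6e-05 to 0.0431), with log2 differences from -1.66 after background correction to -0.94 without wild type replicate 2. Adjusted over all probes instead, the same probe missed the threshold with knockout replicate 3 left out (-1.09, limma adjusted p = 0.055).

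**Figure D2:**
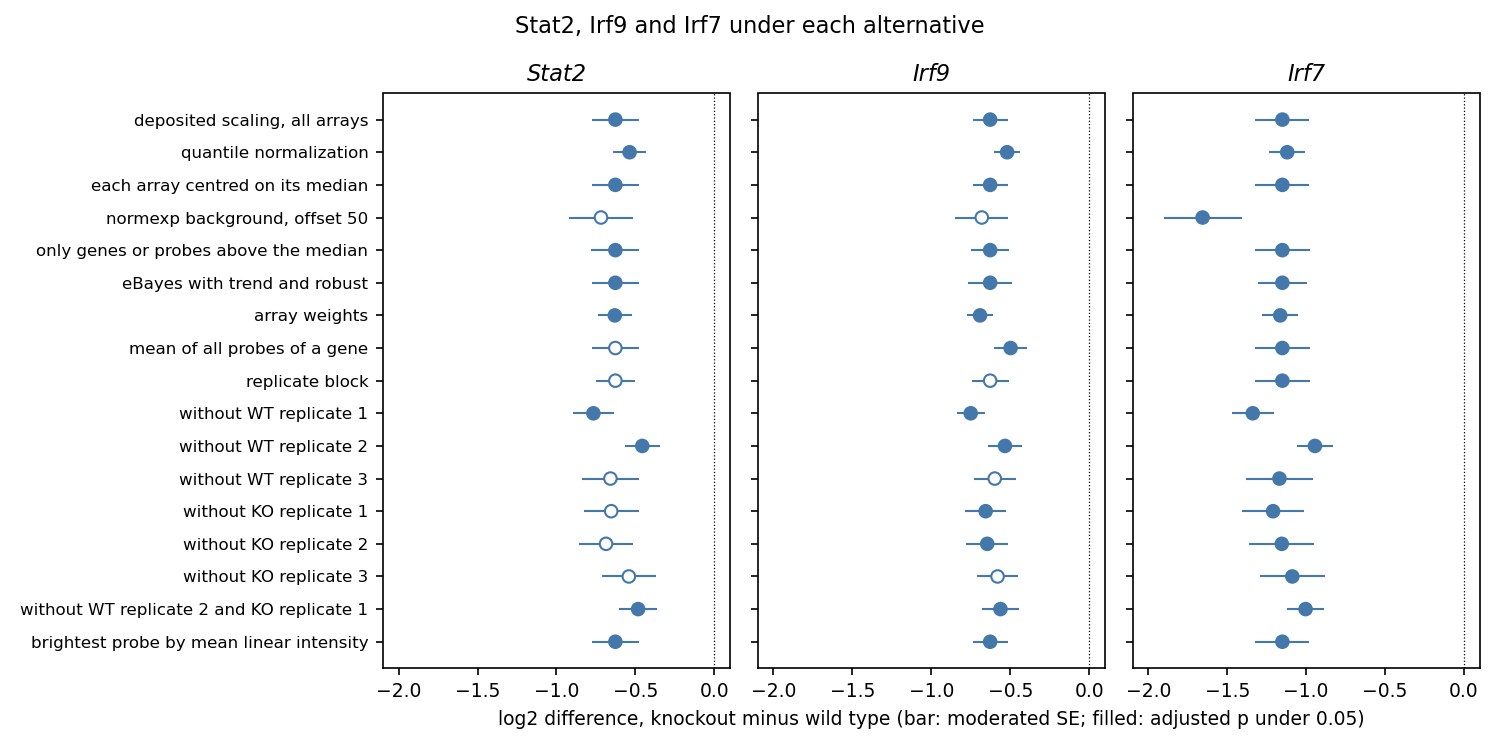
Log2 difference of Stat2, Irf9 and Irf7 (knockout minus wild type, horizontal axis, bars ± 1 moderated SE) under the deposited scaling and each of 16 alternatives (rows). Filled points passed a limma adjusted p of 0.05: all for Irf7, while open points mark 4 lost calls for Irf9 and 7 for Stat2; no value crosses 0.

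Irf3, the relative of Irf7 that is present before infection, showed no called difference. The brightest Irf3 probe read 34931, 46041 and 37483 in wild type and 42003, 42798 and 38419 in knockout, with overlapping groups and a log2 difference of 0.07 ± 0.11 (SE, 95% interval -0.18 to 0.31, limma adjusted p = 0.844). The interval excludes a fall of the size seen in Irf7. Compared within each array, the log2 ratio of Irf7 to Irf3 was 1.13 to 1.27 below its wild-type mean in the knockout arrays and stayed within 0.21 of it in wild type. The difference was -1.22 (SD 0.20 in wild type and 0.07 in knockout, n = 3 each, exact two-sided permutation p = 0.1, adjusted p = 0.15 over 6 pairs). The 2 dimmer Irf3 probes differed by -0.21 and 0.06, and none of its 3 probes was called.

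Irf1 and Irf2, an activator and a repressor that bind the same elements, showed no called difference. Irf2 read 16610, 18480 and 16650 in wild type and 17345, 17894 and 15207 in knockout (log2 difference -0.04 ± 0.09 SE, 95% interval -0.24 to 0.16, limma adjusted p = 0.897). The ratio of Irf9 to Irf2 within the array was lower in every knockout array, by 0.59 on average (exact two-sided permutation p = 0.1, adjusted p = 0.15). Irf1 had 5 probes. The brightest read 15081, 18167 and 15809 in wild type and 14374, 16867 and 12752 in knockout (-0.16 ± 0.11 SE, limma adjusted p = 0.547). The next brightest read 10737, 15898 and 14185 against 11823, 9037 and 9790 (-0.40 ± 0.15, limma adjusted p = 0.212 over all probes). Its groups overlapped through wild type replicate 1, and without that array it was called (-0.57, adjusted p = 0.0301). The remaining 3 Irf1 probes were dim, with wild-type means of 1789, 1534 and 879, and differed by -0.06, 0.10 and -0.06.

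Stat3 varied more between arrays of 1 genotype than between genotypes. Its brightest probe read 16004, 31645 and 15264 in wild type and 26461, 17880 and 20516 in knockout, and a second probe read 13226, 22221 and 14154 against 23875, 17422 and 18734. In each genotype the highest value at these probes fell in the array with the highest upper quartile, wild type replicate 2 and knockout replicate 1. The log2 differences were 0.11 ± 0.26 (SE, 95% interval -0.47 to 0.69, limma adjusted p = 0.901) and 0.30 ± 0.19 (limma adjusted p = 0.547 over all probes). With those 2 arrays left out, the second probe was called as higher in knockout (0.40, limma adjusted p = 0.0184) and the brightest was not (0.29, 0.108). Without wild type replicate 2 alone the second probe was also called (0.54, 0.025). A dimmer probe, annotated to another Stat3 transcript, went the other way: it read 5889, 5954 and 6165 in wild type and 5593, 4812 and 5115 in knockout, with separate groups, and missed the threshold (-0.22 ± 0.07, limma adjusted p = 0.179). The log2 ratio of that probe to the brightest differed by -0.33 between genotypes (exact two-sided permutation p = 0.4, adjusted p = 0.4 over 6 pairs). The log2 ratio of Stat2 to the brightest Stat3 probe was lower in every knockout array, by 0.74 on average (exact two-sided permutation p = 0.1, adjusted p = 0.15). The SD was 0.325 in wild type and 0.331 in knockout. The margin was narrow: measured from the wild-type mean, wild type replicate 2 stood at -0.34 and knockout replicate 2 at -0.36.

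Over all 20 probes, 3 fell and 0 rose at a limma adjusted p under 0.05, against 2.5% falls, 1.4% rises and 3.9% calls of either kind among all 45281 probes. Groups were separate at 5 probes, those of Stat2 and Irf7, both of Irf9 and the dimmest of Stat3, a state found in 18.5% of all probes. At an unadjusted p under 0.05, 6 probes were lower and 0 higher: these 5 and the second Irf1 probe.

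**Figure D3:**
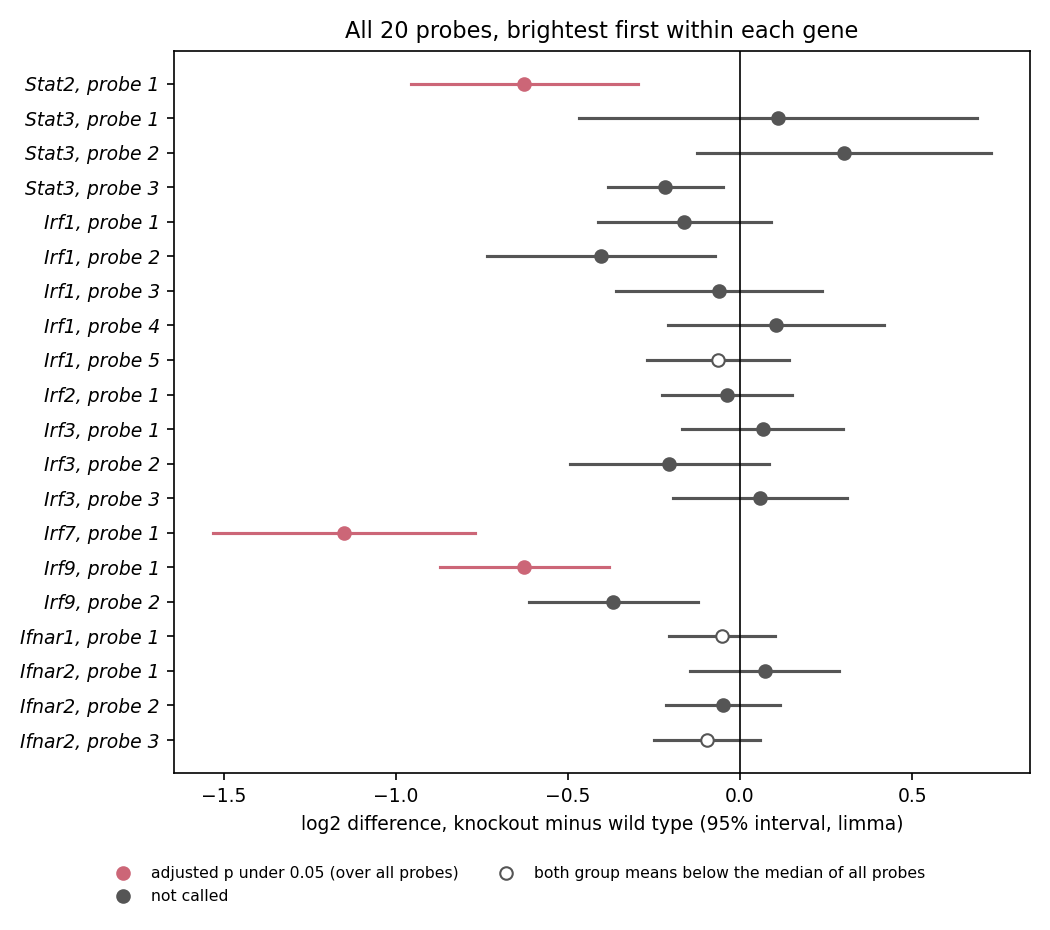
Log2 difference (knockout minus wild type, horizontal axis) with its 95% interval from limma for all 20 probes, ordered by gene and by brightness within a gene. The called probes of Stat2, Irf7 and Irf9 (red) have intervals below 0, and open circles mark the 3 probes with both group means below the median of all probes.

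The ligands upstream of the receptor gave no called difference. Of 18 measured interferon ligand genes limma called 0, with 0 also at an unadjusted p under 0.05 in either direction, and log2 differences ran from -0.09 to 0.15. Interferon beta (Ifnb1), the type I interferon of fibroblasts, read 846 in wild type and 844 in knockout on average, below the array median, and 12 of the 18 had both means below the median of probe means. Their probes set no usable level, and the Ifna genes are near-identical copies whose probes may share signal. Of the other receptor chains and kinases, 1 of 8 fell. Among all genes 4.08% fell and 6.28% were called either way, and above the median of probe means 6.43% and 9.84%. Jak2, the kinase of the interferon gamma receptor and of many cytokine receptors, read 12865, 14303 and 13691 in wild type and 8070, 8801 and 8477 in knockout (-0.69 ± 0.08 SE, limma adjusted p = 0.000809). Its groups were far apart, and it was called in all 16 alternatives, with -0.36 when averaged over its probes. Jak1 and Tyk2, the kinases of the type I receptor, differed by -0.14 and 0.19 and did not pass, nor did the interferon gamma receptor chains Ifngr1 (-0.09) and Ifngr2 (0.36).

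Among sensors, adaptors and kinases that activate IRF3 and IRF7, 2 of 20 fell and 1 rose, or 15% called with a median of -0.02, against 6.28% called among all genes and 9.84% above the median of probe means. Trim25, a ubiquitin ligase that activates the RNA sensor RIG-I, fell by 0.68 (SE 0.13, limma adjusted p = 0.0175), and Ddx58, which codes for RIG-I, by 0.49 (SE 0.07, 0.0036). Tlr4, the receptor for bacterial lipopolysaccharide, rose (0.53 ± 0.08, 0.00459). Trim25 lost its call when wild type replicate 3 or knockout replicate 2 or 3 was left out (limma adjusted p 0.0645, 0.0805 and 0.106). It was also lost after background correction (0.0839) and with the replicate number as a block (0.102). Averaging over probes removed the calls of Ddx58 (-0.18, 0.147) and Tlr4 (0.22, 0.0789), and background correction also removed that of Tlr4 (0.63, 0.058). The kinases that phosphorylate IRF3 and IRF7, Tbk1 and Ikbke, differed by 0.21 and 0.33 and did not pass. Other STAT and IRF genes gave 0 calls among 7, with 2 lower at an unadjusted p under 0.05, Stat5a (-0.32) and Irf5 (-0.31). Only 3 of these 7 had a mean above the median of probe means in at least 1 genotype.

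Of 14 negative regulators of JAK-STAT signalling, 2 fell and 0 rose, with a median of -0.07, against 4.08% falls among all genes and 6.43% above the median of probe means. With array weights 2 of the 14 rose, and 1 after quantile normalization. Usp18, which fell, is also on the list of ISGF3 targets. Usp18, a protease that removes ISG15 and also blocks IFNAR2, read 9433, 14931 and 14328 in wild type and 3624, 3779 and 3042 in knockout (-1.87 ± 0.17 SE, limma adjusted p = 0.000287). Socs2, a suppressor of cytokine signalling best known from the growth hormone receptor, read 7459, 9576 and 8394 against 3513, 3702 and 3570 (-1.23 ± 0.10, 0.000145). Averaged over its probes, Socs2 differed by -0.62 and was still called. In each the knockout arrays lay close together, below the lowest wild-type array. Socs1, the main brake on interferon gamma signalling, was close to the array median (1082 and 1095) and differed by 0.02. Socs3, which restrains gp130 and is a STAT3 target, read 8107, 10483 and 8989 against 12547, 12179 and 10497 (0.36 ± 0.11), with separate groups by a narrow margin, short of the threshold (limma adjusted p = 0.104).

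Of 35 measured genes listed as ISGF3 targets, 19 fell, 0 rose and 16 did not pass (0 rises at an unadjusted p under 0.05). Falls made up 4.08% of all genes and 6.43% of those above the median of probe means. Which factor acts on the listed genes in these cells was not tested. Their median log2 difference was -0.49, against -0.02 over all genes and -0.06 over genes above the median of probe means. A difference below 0 was found in 34 of the 35, some of them dim genes with differences near 0. Isg15, a ubiquitin-like protein, read 6564, 12508 and 11481 in wild type and 2697, 2584 and 2342 in knockout (-1.95 ± 0.21 SE, limma adjusted p = 0.000723). Oasl2, a relative of the oligoadenylate synthetases, differed by -1.81 ± 0.16 (limma adjusted p = 0.000295), or by -1.03 averaged over its probes, and Usp18 and Ddx58 also belong to this list. Of the 16 that did not pass, 7 had both means below the median of probe means, where a missing call says little. The Oas1 genes of the list are close copies, and their separate values are uncertain. Falls numbered 10 with wild type replicate 3 or knockout replicate 3 left out and 12 with knockout replicate 2 left out. Of the called genes, 15 had a promoter window and 7 of those held an ISRE core, against 6 of 10 among the measured genes that were not called.

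Genes listed as targets of interferon gamma and IRF1, including the immunoproteasome and guanylate-binding proteins, fell in 8 of 27 cases, and 1 rose. Which interferon or factor acts on the listed genes in these cells was not tested, and Irf1 itself was not called. Among all genes 4.08% fell and 2.19% rose, and above the median of probe means 6.43% fell and 3.4% rose. Igtp, an interferon-inducible GTPase, differed by -1.17 ± 0.12 (SE), the guanylate-binding protein Gbp3 by -0.98 ± 0.11 and the immunoproteasome subunit Psmb9 by -0.58 ± 0.09 (limma adjusted p at most 0.00459), and Psmb9 by -0.91 after background correction. Il15, a cytokine that sustains natural killer cells, rose (0.56 ± 0.11, 0.017). It was not called when averaged over its probes (0.19, 0.106) or after background correction (0.74, 0.0656). The call was also lost with replicate 3 of wild type (0.60, 0.0702) or of knockout (0.54, 0.1) left out. The median of the list was -0.20, and falls numbered 4 with replicate 3 of either genotype or knockout replicate 2 left out and 5 with knockout replicate 1 left out.

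On the STAT3 side, none of 13 gp130 cytokines and receptors was called by limma, with 3 higher and 0 lower at an unadjusted p under 0.05. The gp130 chain itself, Il6st, read 9888, 9942 and 10070 in wild type and 14679, 11390 and 12681 in knockout (0.37 ± 0.10 SE, limma adjusted p = 0.0581), with separate groups but short of the threshold. Among 19 STAT3-responsive genes 6 rose, 1 fell and 12 did not pass, with a median of 0.09, against 2.19% rises among all genes and 3.4% above the median of probe means. After background correction 3 rose. Lcn2, an iron-scavenging lipocalin, rose most (2.07 ± 0.10), followed by the protease inhibitor gene Serpina3n (1.94 ± 0.15) and the serum amyloid gene Saa3 (1.87 ± 0.10), and Lrg1, a secreted glycoprotein of the acute-phase response, fell (-0.85 ± 0.09, limma adjusted p = 0.000723, and -1.56 after background correction). These genes also answer to other factors such as NF-kB, so the list is not specific to STAT3.

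**Figure D4:**
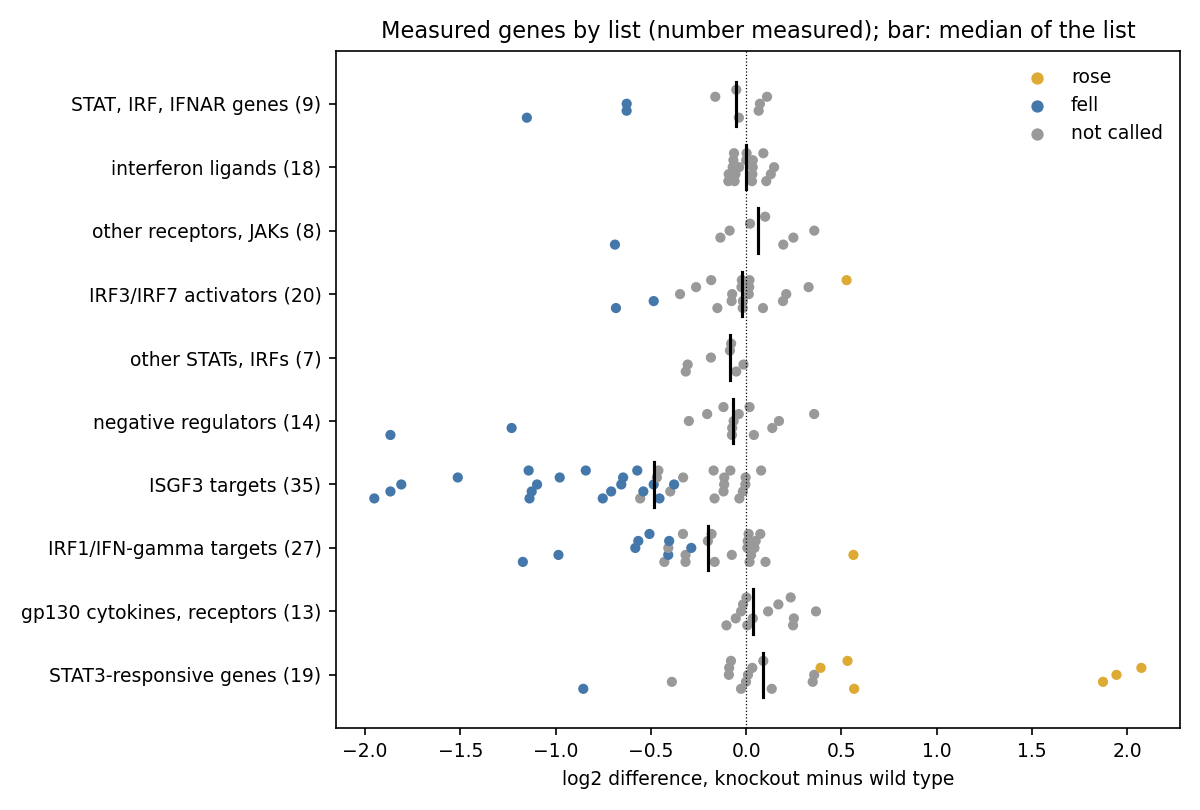
Log2 difference (knockout minus wild type, horizontal axis) of every measured gene in the 9 genes described and in 9 pathway lists (rows, number measured in brackets); each point is a gene, colour gives the limma call and the black bar the median. ISGF3 targets lie mostly below 0 with a median of -0.49, the ligands cluster at 0, and the 3 largest rises are among STAT3-responsive genes.

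Over the 6 arrays, the profiles most like those of the called genes were sought among 11984 other genes above the median of probe means, by the root mean square distance between log2 values centred on each gene's mean. The nearest to Irf7 were the antiviral GTPase gene Mx2 (distance 0.07, log2 difference -1.14), the cartilage matrix gene Comp (0.08, -1.05) and Lrrc75a (0.09, -1.07). Nearest to Irf9 were Trim34a (0.03, -0.59), the surface glycoprotein gene Thy1 (0.03, -0.60), which is among the fibroblast markers that fell, and the secreted olfactomedin gene Olfm1 (0.04, -0.66). Nearest to Stat2 were Pi16 (0.05, -0.59), Vstm4 (0.05, -0.67) and Sh3d21 (0.07, -0.69). The 6 values include the genotype difference, so genes that fell by a like amount rank near. Shared regulation was not tested.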

How the data were processed

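Total RNA of 6 fibroblast samples was labelled with biotin, per the labels' protocols, and read on bead arrays from Illumina. The authors deposited linear intensities, scaled so that each array had a median of 1000. The scanner, its software and any background step were not stated in the labels. Symbols came from the platform annotation: 34885 probes had 1, 18 several and 10378 none. Log2 intensities were fitted by genotype (R 4.3.3, limma 3.58.1, lmFit and eBayes) over 19057 genes, each read at its brightest probe, and over 45281 probes. Tests are two-sided with Benjamini-Hochberg adjustment and a threshold of 0.05, and differences are knockout minus wild type. The fit was tested on simulated data. Alternatives were quantile normalization, median centring, normexp background correction (offset 50), a filter on dim probes, trend and robust moderation, array weights, probe means, a replicate block and each array left out.

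Brightness was first ranked by mean linear intensity, which called 419 rises and 780 falls. The ranking was changed to mean log2 intensity after those counts had been seen, which gave 418 and 778, and the linear ranking is kept as an alternative. It and the joint removal of wild type replicate 2 and knockout replicate 1 were added after seeing the data.

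The members, 9 pathway lists and 6 marker lists (223 entries, 208 measured) were chosen with earlier results of these data known. In each list the text names up to 3 rises and 3 falls of greatest size, from genes that were called, had non-overlapping genotypes and exceeded the probe-mean median in 1 genotype. Jak1, Tyk2, Ifngr1, Ifngr2, Tbk1, Ikbke, Stat5a, Irf5, Ifnb1, Socs1, Socs3, Il6st, Ptprc, Itgam, Fcgr1, Adgre1, Csf1r, Cx3cr1, Cd14, Tcf4, Dcn, Thy1 (as a marker), Xist, Eif2s3y, Kdm5d and Uty were named after their values had been seen. Of the marker genes that the rule gives, those of the endothelial and epithelial lists are not named. Deviations of arrays from their group means correlated at -0.436, -0.343 and 0.235 between arrays of like replicate number, so numbers were not taken as pairs. Between unlike numbers they ran from -0.202 to 0.509, with the highest between wild type replicate 2 and knockout replicate 1 and 0.386 between wild type replicate 1 and knockout replicate 2. The number of arrays limits the precision.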

Additional observations from a re-analysis of the deposited data

How the results depend on the processing

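In the gene-level fit Irf7 and Lasp1 kept their calls in all 16 alternatives, Irf9 in 12 and Stat2 in 9, with no change of direction. Adjusted over all probes, Irf7 was not called without knockout replicate 3 (limma adjusted p = 0.055). Of the 9 genes, 1 fell after normexp and 1 with the replicate block (3 in the deposited scaling), and 1 to 3 with an array left out. Of their 20 probes, 1 fell after normexp, 1 with the block and 0 to 5 with an array left out, and 0 to 1 rose with an array left out. Without wild type replicate 2 and knockout replicate 1 together, 1 probe, of Stat3, rose. The block, whose numbers pair no samples, gave 179 rises and 236 falls over all genes, and under it Stat2 (adjusted p = 0.0773) and Irf9 (0.0676) were not called by limma.

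Over all genes, rises numbered 1009 after quantile normalization, 222 after normexp, 985 with array weights, 658 without the 2 arrays and 207 to 729 with 1 array left out. Falls numbered 316 after normexp, 2282 with array weights and 244 to 1217 with 1 array left out.

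Among lists, gp130 genes gave 1 rise with array weights, 2 after quantile normalization and 0 to 1 with an array left out. STAT3-responsive genes gave 3 rises after normexp and 3 with the block, against 4 to 6 with an array left out. Their falls were 2 with array weights, 2 after quantile normalization, 2 without the 2 arrays and 1 to 2 with an array left out. Negative regulators gave 1 rise after quantile normalization, 2 with array weights, 1 without the 2 arrays and 0 to 1 with an array left out. IRF3 and IRF7 activators gave 3 rises under quantile scaling, 2 with array weights, 0 after normexp, 0 with probe means and 1 to 2 with an array left out, and 1 fall after normexp, with probe means and with the block, and 1 to 3 with an array left out. Other STAT and IRF factors gave 2 falls with array weights, 2 after quantile normalization and 0 to 1 with an array left out. ISGF3 targets gave 9 falls with the block and 10 to 24 with an array left out. IRF1 and interferon gamma targets gave 0 rises after normexp and with probe means and 0 to 1 with an array left out, and 4 falls after normexp, 14 with array weights, 3 with the block and 4 to 11 with an array left out.

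Small differences changed sign. With an array left out, Stat3 ran from -0.0772 to 0.4487, Irf2 from -0.0849 to 0.0325, Irf3 from -0.018 to 0.1813 and its dimmest probe from -0.0403 to 0.1552. Over the same omissions the 3 dim Irf1 probes ran from -0.2103 to 0.0494, from -0.0351 to 0.2655 and from -0.1319 to 0.0082, and the second Ifnar2 probe from -0.0914 to 0.0065. Quantile normalization gave 0.0623 for Irf2, and array weights 6e-04 for Ifnar1. Probe means gave -0.0273 for Irf3 and -0.0245 for Ifnar2. The causes were not tested. Probes near the array median, such as that of Ifnar1, set no usable level.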
